A study of Mus musculus with 8 samples.

Results

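Heat shock proteins and chaperones were compared by RNA-seq between 4 METTL3-HKD and 4 METTL3-Flox livers. Every liver had 1 h of ischemia followed by reperfusion for 6 h (I/R). The members are the protein-coding genes whose symbols begin with Hsp90, with Hspa, Hspb, Bag or Cct and a digit, or with Dnaj, together with Hspd1, Hspe1 and Hsph1. This rule took 86 of the 54532 genes of the expression table, whose values are FPKM (fragments per kilobase of gene, scaled to the library). A member was tested when its FPKM averaged 0.1 or more across all 8 livers. This left 77, and the other 9 lay near or at 0. METTL3-HKD mice carry the genotype METTL3 flox/-; Alb-iCre, in which the albumin promoter drives Cre in hepatocytes, and they are heterozygous. METTL3-Flox mice, METTL3 flox/flox, came from the same litters. Both groups therefore carry a floxed allele and both had I/R, so no unoperated liver enters the comparison. The question was how the chaperone system of the injured liver differed with the amount of METTL3, the enzyme that writes m6A on mRNA.

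Chaperones hold other proteins in a foldable state and help them to fold, to assemble or to be degraded. HSP70 proteins bind short exposed stretches of a client in a cycle driven by ATP, which J-domain proteins (Dnaj) start and nucleotide exchange factors (BAG proteins, HSP110) end. HSP90 acts later on nearly folded clients, small heat shock proteins keep unfolded clients from clumping, and chaperonins such as HSP60 and CCT enclose a client in a chamber. Some members are made at all times, and others are switched on by the heat shock factor HSF1 when unfolded proteins build up. The endoplasmic reticulum (ER) and mitochondria hold their own sets, under the unfolded protein responses of these compartments.

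Each liver had between 15861245 and 18434488 reads on genes. Mettl3 itself was at 1.56, 1.39, 1.17 and 1.20 FPKM in METTL3-HKD-1 to METTL3-HKD-4 and at 1.84, 1.16, 1.45 and 1.54 FPKM in the METTL3-Flox livers. The groups overlapped (log2 fold change -0.16 ± 0.17 SE, adjusted p = 0.556 in limma), so the mRNA over the whole gene did not separate the labels. Hepatocyte markers (Alb, Apoa1, Ttr, Cps1 and Hnf4a) summed to between 20380 and 30090 FPKM in METTL3-HKD livers and between 26160 and 29660 FPKM in METTL3-Flox livers, so all 8 libraries carried the label's tissue. The 5 neutrophil markers were all higher in METTL3-HKD livers, where they summed to 325.9 to 1596 FPKM against 12.7 to 43.5 FPKM. Skeletal muscle transcripts stood out in a pair of livers. The 6 muscle markers summed to 60.7 FPKM in METTL3-HKD-1 and to 103.7 FPKM in METTL3-HKD-3, and to at most 2.07 FPKM in the other 6. Counts of members are therefore also given without these livers. In whole tissue, fewer cells of a type and less RNA per cell cannot be told apart.

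Of the 77 tested members, 17 were higher in METTL3-HKD livers at an adjusted p under 0.05, which is 22.1% of them, where 9.05% of all genes tested were higher. A single member, Hsp90b1, was lower, where the background was 6.63%. With a fold change of at least 2 as well, 8 members were higher and 0 were lower, against backgrounds of 4.7% and 1.52%. The unadjusted p of limma was under 0.05 for 22 higher and 6 lower members (28.6% and 7.79%), where 16.7% and 15.1% of all genes tested were. Groups of livers did not overlap for 18 higher and 3 lower members, against 12.7% and 9.95% of all genes. The median log2 fold change of the tested members was 0.15, and that of all genes was -0.00. Without METTL3-HKD-1 and METTL3-HKD-3, 9 members were higher and 0 lower, with backgrounds of 4.12% and 1.60%. Without METTL3-Flox-3, 10 were higher, where the background was 4.49%.

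**Figure D1:**
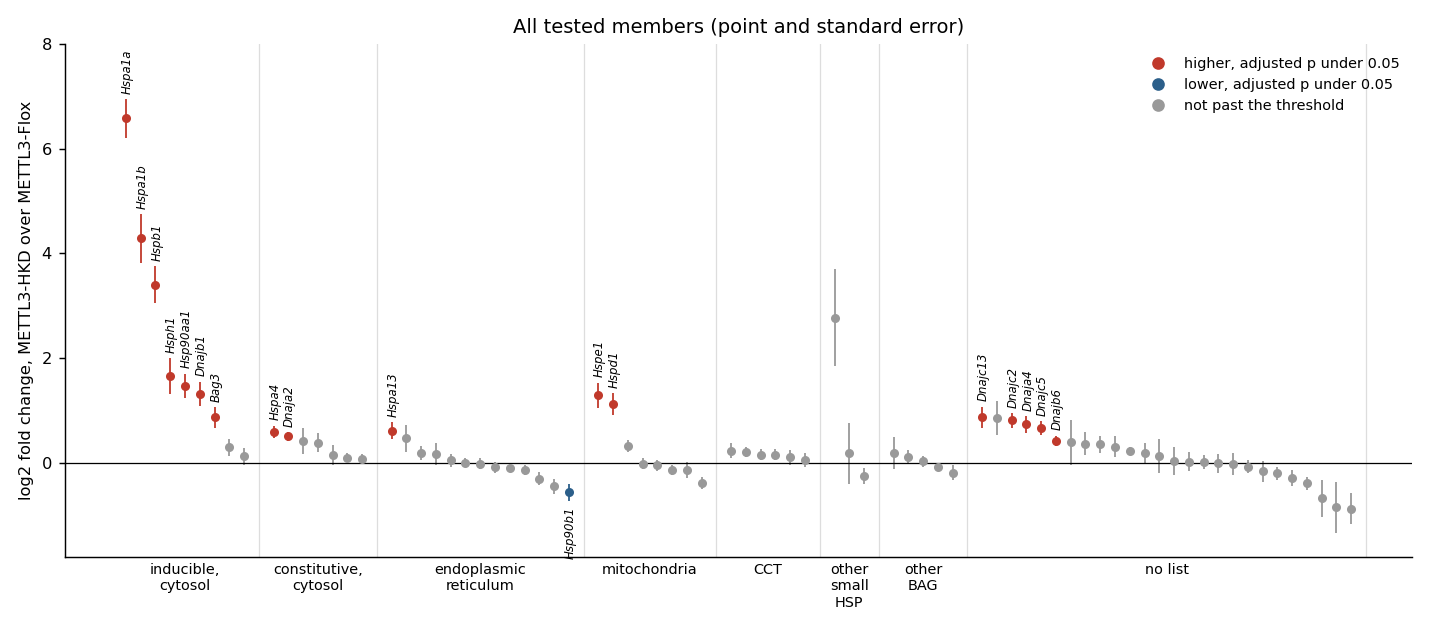
Log2 fold change of each of the 77 tested members, METTL3-HKD over METTL3-Flox, with its standard error as a bar, grouped by compartment or family. Red and blue points passed an adjusted p of 0.05. The inducible list at the left holds the 3 largest called changes, Hspa1a at 6.58, Hspb1 at 3.40 and Hspa1b at 4.29, and Hsp90b1 is the only blue point.

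The inducible chaperones of the cytosol and nucleus held 6 of the 8 members that rose by at least 2-fold. Of the 9 members of this list, 7 rose in METTL3-HKD livers and 0 fell, and the median log2 fold change was 1.47. The risen share was 77.8%, where 9.05% of all genes tested rose and 6.63% fell. Without METTL3-HKD-1 and METTL3-HKD-3, 5 of the 9 rose, where 4.12% of all genes tested did. Hspa1a and Hspa1b encode the inducible HSP70, the first protein that stressed cells make in quantity to hold unfolded clients. Hspa1a (chromosome 17, 34969190 to 34972156, minus strand, GRCm38) was at 60.2, 113.3, 34.7 and 74.1 FPKM in METTL3-HKD-1 to METTL3-HKD-4 and at 0.972, 0.521, 0.332 and 0.628 FPKM in METTL3-Flox-1 to METTL3-Flox-4. The lowest METTL3-HKD liver was far above the highest METTL3-Flox liver. Group means were 70.6 ± 32.8 and 0.614 ± 0.269 FPKM (SD, n = 4). On the log2 scale the rise was 6.58 ± 0.37 (SE, adjusted p = 0.00023).

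Its neighbour Hspa1b lies on the same strand, from 34956436 to 34959238. It was at 169.5, 334.6, 118.3 and 180.7 FPKM in the METTL3-HKD livers and at 14.5, 6.80, 4.41 and 18.3 FPKM in the METTL3-Flox livers. Again no liver of one group reached the other, and METTL3-HKD-2 was the highest for both genes. The log2 fold change of Hspa1b was 4.29 ± 0.47 (SE, adjusted p = 0.0023). The pair share reads. Of the 100-base stretches of Hspa1b transcripts, 49.9% also occur in Hspa1a, so the split between them is uncertain and their sum is the safer measure. The sum was 271.3 ± 125.4 FPKM in METTL3-HKD livers and 11.6 ± 6.69 FPKM in METTL3-Flox livers (SD, n = 4), a 23.4-fold difference. Within the sum, Hspa1a took 22.7% to 29.1% in METTL3-HKD livers and 3.32% to 7.12% in METTL3-Flox livers, ranges that did not overlap.

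The small heat shock protein Hspb1 (HSP25, which binds unfolded clients and actin) showed the next largest rise. It was at 251.9, 382.9, 182.1 and 148.1 FPKM in METTL3-HKD livers and at 15.9, 14.3, 24.4 and 36.5 FPKM in METTL3-Flox livers. The groups lay well apart, and the gene moved from rank 23 to rank 6 among the tested members by mean level. Its log2 fold change was 3.40 ± 0.36 (SE, adjusted p = 0.0021). Of the 100-base stretches of Hspb1 transcripts, 44% also occur in the pseudogene Hsp25-ps1, which stood at 0 reads in the METTL3-Flox livers and at up to 0.859 FPKM in the METTL3-HKD livers.

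Heat shock elements, the inverted repeats of the unit GAA that HSF1 binds, were present in front of several of these genes. The motif was searched as GAANNTTC or TTCNNGAA, forms that read the same on both strands, in the 250 bases before each start in RefSeq promoter windows (GRCm38.p6). The windows cover 70 of the 86 members and 27025 genes in all. The sites are shown because the members that carry them can be set against the fold changes. Capitals mark the GAA and TTC units.
Hspa1a, chr17:34972227-34972286, minus strand: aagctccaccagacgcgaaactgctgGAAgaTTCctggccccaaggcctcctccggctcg
Hspa1b, chr17:34959309-34959368, minus strand: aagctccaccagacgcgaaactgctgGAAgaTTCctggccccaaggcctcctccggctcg
Hspb1, chr5:135887789-135887848, plus strand: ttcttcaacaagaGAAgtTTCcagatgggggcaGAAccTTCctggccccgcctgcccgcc
Hsph1, chr5:149636348-149636377, minus strand: tagaatctTTCtcGAAggctcgagaagaag
Hspe1, chr1:55088053-55088082, plus strand: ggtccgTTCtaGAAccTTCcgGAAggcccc
Dnajb6, chr5:29735846-29735875, plus strand: ctccgaGAAtcTTCcgGAAcgctagaccag
Dnaja4, chr9:54699461-54699490, plus strand: acctccgcGAAcgTTCtgggcctatgtggc

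The Hspa1a and Hspa1b lines are the same base for base, and over all 250 bases before the start 247 are identical between the genes. The site lies 104 bases before the start in both. Hspb1 has a pair of sites, 117 and 97 bases before its start. Hspe1 and Dnajb6 hold units that overlap into runs of 3 or more. The printed stretches of Hsph1, Hspe1 and Dnajb6 overlap exons of longer transcripts or of the neighbouring gene in GENCODE M21. That of Dnaja4 lies inside the annotated Dnaja4 gene, outside its exons. A site of 2 units was found in 8 of the 13 members that rose and have a window, which is 61.5% of them. These 8 are not separate promoters, since Hspa1a and Hspa1b are near copies and Hspd1 and Hspe1 share a stretch. Such a site was found in 7 of the 49 tested members with a window that did not rise (14.3%). Its share was 12.3% of the genes tested with a window and 14.5% of all genes of the promoter table. Among the inducible list, 5 of 8 had one, and Dnaja1, which did not pass the test, was among these 5. A run of 3 such alternating units, each 2 bases from the next, was present in 0.514% of all genes and in 3 members, Hspd1, Hspe1 and Dnajb6. These counts describe letters in a window and not binding.

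The inducible HSP90, Hsp90aa1, folds kinases and steroid receptors under stress. It was at 257.7, 288.9, 150.1 and 193.1 FPKM in METTL3-HKD livers and at 95.3, 56.6, 73.6 and 93.1 FPKM in METTL3-Flox livers, with no overlap. The log2 fold change was 1.47 ± 0.24 (SE, adjusted p = 0.0077). Of its 100-base stretches, 33.8% also occur in the pseudogene Gm12346, which was listed at a mean of 5.76 FPKM in METTL3-HKD livers and 2.03 FPKM in METTL3-Flox livers.

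Hsph1, the inducible HSP110 that resets HSP70 by nucleotide exchange, was at 47.2, 64.4, 24 and 28.4 FPKM in METTL3-HKD livers. In METTL3-Flox livers it was at 15.1, 7.40, 11.2 and 16.6 FPKM. All METTL3-HKD livers were higher, although METTL3-HKD-3 and METTL3-HKD-4 were much closer to the other group than METTL3-HKD-1 and METTL3-HKD-2 were. The log2 fold change was 1.65 ± 0.35 (SE, adjusted p = 0.017). Without METTL3-HKD-1 and METTL3-HKD-3 it was 1.83 with an adjusted p of 0.0549. The call of Hsph1 was also lost without METTL3-Flox-3.

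Dnajb1 (HSP40), the J-domain partner of inducible HSP70, had another order of livers. It was at 21.6, 28.8, 44.1 and 28.6 FPKM in METTL3-HKD livers, so METTL3-HKD-3 was the highest here, and at 15.4, 10.04, 9.26 and 14.0 FPKM in METTL3-Flox livers. The groups did not overlap, and the log2 fold change was 1.31 ± 0.24 (SE, adjusted p = 0.011). Bag3, which links HSP70 to small heat shock proteins and to autophagy, was at 30.4, 34.6, 24.5 and 27.3 FPKM against 21.7, 13.4, 11.9 and 18.3 FPKM. The groups stayed apart by a small gap, and the log2 fold change was 0.87 ± 0.20 (SE, adjusted p = 0.022). Without METTL3-HKD-1 and METTL3-HKD-3, Bag3 was no longer called (0.95, adjusted p = 0.0824). Its call was also lost when METTL3-HKD-1, METTL3-HKD-2, METTL3-Flox-2 or METTL3-Flox-3 alone was left out, so in 5 of 16 alternatives.

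Both remaining members of the inducible list overlapped between the groups. Dnaja1, a further HSP40, was at 33.02 ± 4.46 FPKM in METTL3-HKD livers and 30.5 ± 6.34 FPKM in METTL3-Flox livers (SD, n = 4), with a log2 fold change of 0.13 and a 95% interval from -0.24 to 0.50. Hspb8, the small heat shock protein that works with Bag3, was at 122.3 ± 25.4 and 98.3 ± 10.9 FPKM, with a log2 fold change of 0.30 and an interval from -0.07 to 0.66. Among METTL3-HKD livers, METTL3-HKD-2 was the highest for 7 of the 9 inducible members and METTL3-HKD-3 the lowest for 7 of 9. For the neutrophil markers, METTL3-HKD-1 was the highest and METTL3-HKD-3 the lowest for all 5. The part of infiltrating cells in these levels was not tested.

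**Figure D2:**
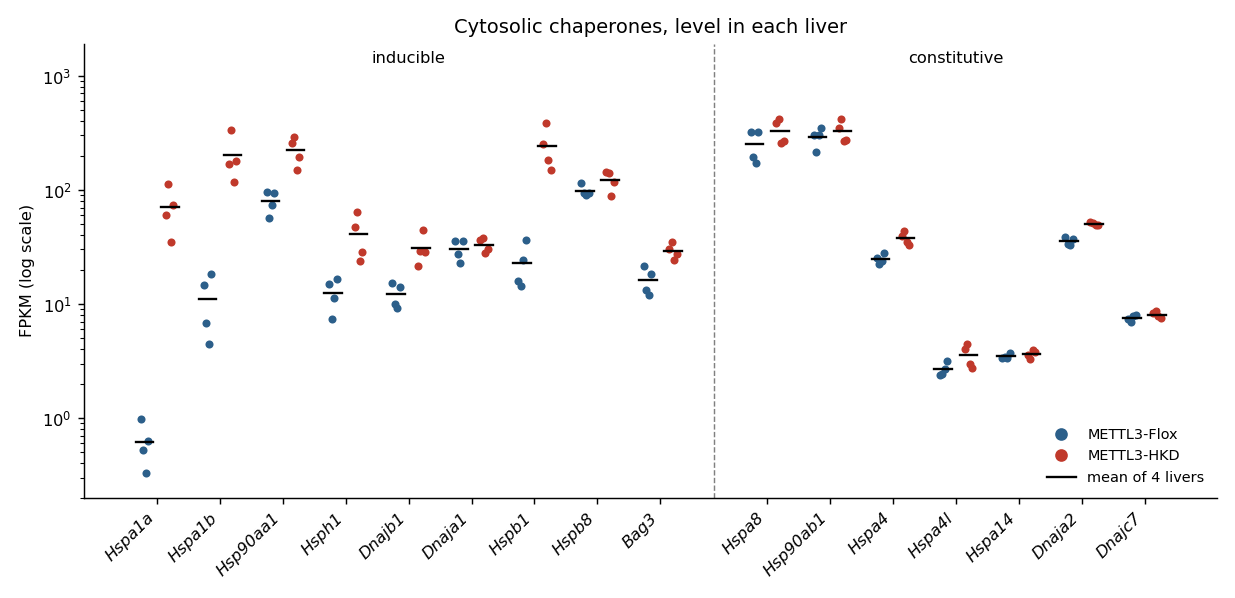
Level of the 9 inducible and 7 constitutive chaperones of the cytosol in each of the 8 livers, in FPKM on a log scale, with the mean of each group as a line. Blue and red points separate for 7 of the 9 inducible genes, with Hspa1a below 1 FPKM in every METTL3-Flox liver, and for Hspa4 and Dnaja2 among the constitutive genes.

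The constitutive chaperones of the cytosol differed less. Of the 7 on this list, 2 rose, Dnaja2 and Hspa4, 0 fell, and the median log2 fold change was 0.38. The risen share was 28.6%, against 9.05% of all genes tested, of which 6.63% fell. Dnaja2, a constitutive HSP40, was at 52.1, 51.1, 49.0 and 49.2 FPKM in METTL3-HKD livers and at 38.7, 33.6, 32.6 and 36.8 FPKM in METTL3-Flox livers. The livers within each group were close together, which gave a small change a small error (log2 fold change 0.51 ± 0.08 SE, adjusted p = 0.0082). Hspa4, the constitutive HSP110, was at 39.6, 43.6, 34.7 and 32.9 FPKM against 25.4, 22.2, 23.9 and 28.2 FPKM. Its groups did not overlap either (0.59 ± 0.12 SE, adjusted p = 0.014). Without METTL3-HKD-1 and METTL3-HKD-3 the adjusted p was 0.0530 for Dnaja2 and 0.0716 for Hspa4.

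Hspa8, the constitutive HSP70 and one of the most abundant members, was at 385.3, 415.8, 257.9 and 266.2 FPKM in METTL3-HKD livers and at 318.7, 194.9, 173.4 and 320.4 FPKM in METTL3-Flox livers. The groups overlapped, and the log2 fold change of 0.42 had an interval from -0.16 to 0.99. Hsp90ab1, the constitutive HSP90, was at 325.6 ± 71.03 and 292.3 ± 56.2 FPKM (SD, n = 4), with a difference of 0.15 and an interval from -0.29 to 0.60. Hspa4l, Hspa14 and Dnajc7 had log2 fold changes of 0.38, 0.07 and 0.09 and overlapping groups. Of the 100-base stretches of Hspa8, 52.6% also occur in the pseudogene Gm15459, which was listed at 0 FPKM in all livers. None of the 5 list members with a promoter window had a heat shock element of 2 units in it.

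Ratios between an inducible gene and its constitutive relative were then taken within each liver, since a ratio does not depend on the scaling between livers. Hspa1a plus Hspa1b stood at 0.596, 1.08, 0.593 and 0.957 of Hspa8 in the METTL3-HKD livers and at 0.0486, 0.0376, 0.0274 and 0.0591 of it in the METTL3-Flox livers. The inducible transcripts thus came near the level of Hspa8 in one group and stayed far below it in the other. The log2 difference was 4.21 (exact permutation test, two-sided, p = 0.0286, adjusted over 7 ratios 0.0333), and 0.0286 is the smallest p that 4 against 4 livers allow. The levels given above already fixed this separation, since Hspa1a plus Hspa1b differed between groups far more than Hspa8 varied. The p therefore adds no support to them. In shares of the cytosolic HSP70 pool, Hspa1a and Hspa1b made up 43.8% ± 7.65 in METTL3-HKD livers and 4.12% ± 1.26 in METTL3-Flox livers (SD, n = 4). The whole pool summed to 602.6 ± 192.9 and 263.5 ± 85.2 FPKM.

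The ratio of Hsp90aa1 to Hsp90ab1 was 0.733, 0.697, 0.566 and 0.713 in METTL3-HKD livers and 0.312, 0.264, 0.245 and 0.267 in METTL3-Flox livers. The groups lay apart with little spread inside each (log2 difference 1.31, 95% interval 1.04 to 1.59, exact permutation p = 0.0286). Hsp90aa1 was 40.3% ± 2.81 of the cytosolic HSP90 pool in METTL3-HKD livers and 21.4% ± 1.74 in METTL3-Flox livers (SD, n = 4). The ratio of Hsph1 to Hspa4 differed by 1.06 (interval 0.30 to 1.82) and that of Dnajb1 to Dnaja2 by 0.81 (interval 0.17 to 1.44), each on the log2 scale with the same smallest exact p of 0.0286. In both cases no liver crossed into the other group, although METTL3-HKD-1 came close to METTL3-Flox-1 for Dnajb1 over Dnaja2. In all 4 ratios chosen, the inducible side was higher in METTL3-HKD livers. Dnaja1, also on the inducible list, was not set against Dnaja2. Its log2 fold change of 0.13 was smaller than the 0.51 of Dnaja2, so such a pair would not follow this pattern.

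**Figure D3:**
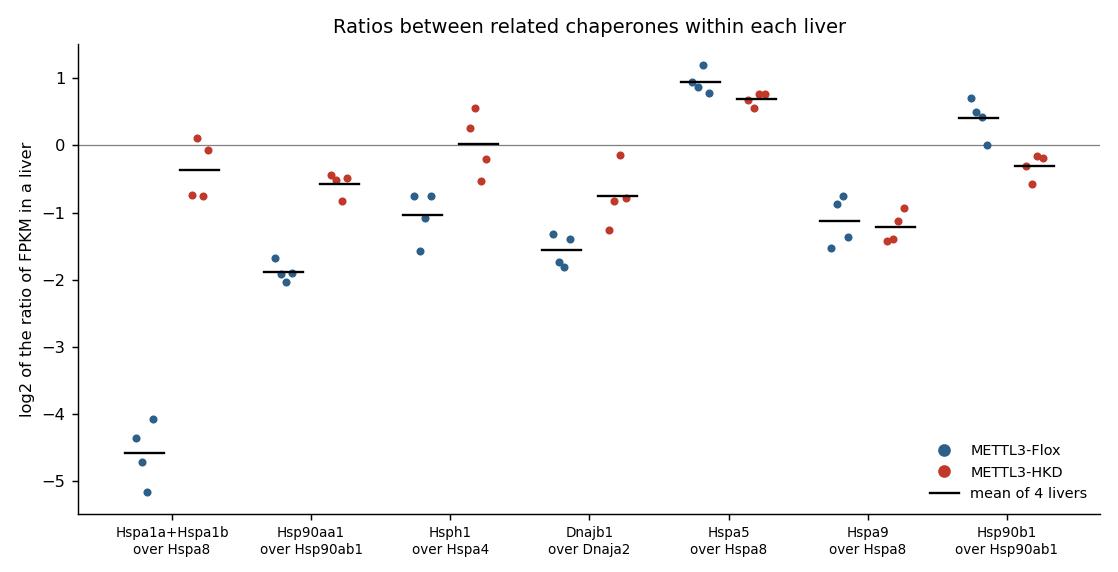
Log2 of the ratio of FPKM between related chaperones in each liver, with the mean of 4 livers as a line. The 4 ratios of an inducible to a constitutive gene at the left are higher in METTL3-HKD livers, the Hspa5 and Hsp90b1 ratios are lower, and the points of Hspa9 over Hspa8 overlap.

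**Figure D4:**
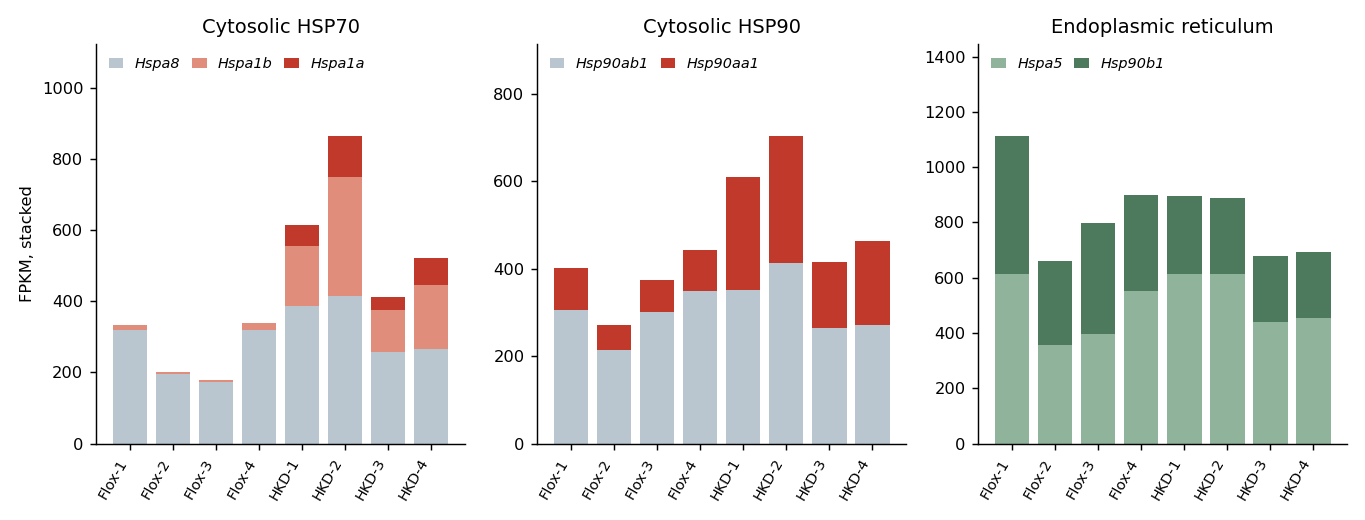
Stacked FPKM of cytosolic HSP70, cytosolic HSP90 and the ER chaperones Hspa5 and Hsp90b1 in each liver, 1 bar per liver and drawn from 0. Hspa1a and Hspa1b fill 37.2% to 51.9% of the HSP70 bars in METTL3-HKD livers and 2.66% to 5.58% in METTL3-Flox livers.

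In mitochondria, the chaperonin pair rose and the HSP70 machine did not pass the test. Hspd1 encodes HSP60, which forms the folding chamber, and Hspe1 encodes HSP10, its lid. Hspd1 was at 359.2, 437.7, 209.7 and 286.1 FPKM in METTL3-HKD livers and at 129.2, 157.3, 136.6 and 153.0 FPKM in METTL3-Flox livers. Hspe1 was at 191.5, 244.9, 101.5 and 142.2 FPKM against 70.8, 59.6, 63.9 and 69.5 FPKM. For both genes the METTL3-HKD livers came in the same order, with METTL3-HKD-2 the highest and METTL3-HKD-3 the lowest, and all of them exceeded the METTL3-Flox livers. Of the 100-base stretches of Hspd1, 22.4% also occur in the pseudogene Hspd1-ps3, listed at a mean of 10.9 FPKM in METTL3-HKD livers and 5.25 FPKM in METTL3-Flox livers. Of those of Hspe1, 20.4% also occur in AC117239.2. The log2 fold changes were 1.12 ± 0.21 for Hspd1 (adjusted p = 0.012) and 1.29 ± 0.24 for Hspe1 (SE, adjusted p = 0.012). The genes lie head to head on chromosome 1, their exons overlap by 112 bases, and the run of heat shock units printed for Hspe1 also lies in the window before a start of Hspd1, as its reverse complement.

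Hspa9 (mortalin), the mitochondrial HSP70, was at 143.0, 158.0, 118.4 and 139.0 FPKM against 110.8, 106.0, 103.0 and 125.0 FPKM. METTL3-HKD-3 fell inside the range of the METTL3-Flox livers (log2 fold change 0.32, interval 0.07 to 0.58, adjusted p = 0.0852). Its ratio to Hspa8 did not separate the groups (log2 difference -0.09, interval -0.63 to 0.44, exact permutation p = 0.657). Of the 8 members of the mitochondrial list, 2 rose and 0 fell, and the median was -0.03. The risen ones, Hspd1 and Hspe1, are 25% of the list, where 9.05% of all genes tested rose and 6.63% fell. The 5 mitochondrial J-domain proteins had log2 fold changes between -0.39 (Dnajc30) and -0.01 (Dnajc11). Dnajc30 did not overlap between groups (5.45 ± 0.33 and 7.21 ± 1.08 FPKM, SD, n = 4, adjusted p = 0.0572), and it shares exon sequence with the neighbouring gene Bud23. Among 7 partners of the mitochondrial system that are no members, 0 passed the test in either direction, with 0 higher and 1 lower at an unadjusted p under 0.05 in limma, against 16.7% and 15.1% of all genes. Trap1, the mitochondrial HSP90, had a log2 fold change of -0.33 (adjusted p = 0.0709) and the protease Lonp1 one of 0.25 (adjusted p = 0.234).

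The ER chaperones showed no rise like that of the cytosol. Of the 13 ER members, 1 rose (Hspa13), 1 fell (Hsp90b1) and 11 did not pass, with a median log2 fold change of -0.01. Each call is 7.69% of the list, near the 9.05% of all genes tested that rose and the 6.63% that fell. Hspa5 (BiP), the ER HSP70 and the member with the highest mean in both groups, was at 613.6, 612.3, 439.4 and 453.2 FPKM in METTL3-HKD livers and at 614.4, 357.2, 395.5 and 550.3 FPKM in METTL3-Flox livers. The groups covered nearly the same range (log2 fold change 0.16, interval -0.31 to 0.64). Relative to Hspa8 in the same liver, Hspa5 was lower in METTL3-HKD livers (log2 difference -0.26, interval -0.50 to -0.01, exact permutation p = 0.0286).

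Hsp90b1 (GRP94), the ER HSP90 that folds integrins and Toll-like receptors, was at 283.5, 277.3, 237.8 and 238.8 FPKM in METTL3-HKD livers and at 497.4, 301.5, 403.9 and 348.7 FPKM in METTL3-Flox livers. The groups did not overlap, with METTL3-Flox-2 nearest to the METTL3-HKD livers. The log2 fold change was -0.56 ± 0.16 (SE, adjusted p = 0.0485), close to the threshold, and 13 of 16 alternatives ended the call. The ratio to Hsp90ab1 does not depend on scaling. It was 0.806, 0.670, 0.896 and 0.881 in METTL3-HKD livers and 1.63, 1.40, 1.34 and 0.999 in METTL3-Flox livers, again without overlap (log2 difference -0.71, interval -1.14 to -0.28, exact permutation p = 0.0286).

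Among ER J-domain proteins, Dnajb11, the BiP partner that binds nascent clients, was at 56.2 ± 5.49 and 77.6 ± 15.2 FPKM (SD, n = 4). Its groups overlapped between METTL3-HKD-1 and METTL3-Flox-2, and it did not pass the test (log2 fold change -0.45, adjusted p = 0.0653). Dnajc3, which also curbs the eIF2 alpha kinase PERK, was at 92.1 ± 7.97 and 114.6 ± 16.8 FPKM (-0.31, adjusted p = 0.129). Dnajb9, a target of the IRE1 and XBP1 branch that brings clients to ER-associated degradation, went the other way in the mean, at 68.5 ± 13.7 and 51.8 ± 21.1 FPKM (0.47, interval -0.13 to 1.06). Hspa13, an HSP70-like protein of microsomes, was at 13.5 ± 1.78 and 8.87 ± 1.96 FPKM (0.62 ± 0.16 SE, adjusted p = 0.034) and was named after its values were seen. Its call was lost in 9 of 16 alternatives.

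The ER stress element, which the unfolded protein response factor ATF6 binds with NF-Y, was searched as CCAAT and CCACG with 9 bases between them, on both strands, in the same windows. It was present in 0.13% of all genes and in 3 of the 11 ER members with a window, Hspa5, Hsp90b1 and Dnajc3. The sites are shown because these 3 genes are the ones whose levels stand beside those of the heat shock element genes. Capitals mark the fixed letters.
Hspa5, chr2:34772018-34772047, plus strand: gacttcaCCAATcggaggcctCCACGacgg
Hsp90b1, chr10:86705605-86705664, minus strand: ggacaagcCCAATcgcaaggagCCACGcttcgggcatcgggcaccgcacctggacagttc
Dnajc3, chr14:118937802-118937861, plus strand: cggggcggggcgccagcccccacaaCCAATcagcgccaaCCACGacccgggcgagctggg

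Hsp90b1 has a second site 107 bases before its start, on the other strand. The Hspa5 stretch lies in an exon of a longer annotated transcript. No member had both kinds of site. Members with an ER stress element had log2 fold changes of 0.16, -0.56 and -0.31. The 8 risen members with a heat shock element had values between 0.42 (Dnajb6) and 6.58 (Hspa1a), positive by their selection. The 7 tested members with a heat shock element that did not rise had values between -0.26 (Hspb6) and 0.85 (Dnajc27). With these 7 included, the ranges of the 2 kinds of site overlapped.

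**Figure D5:**
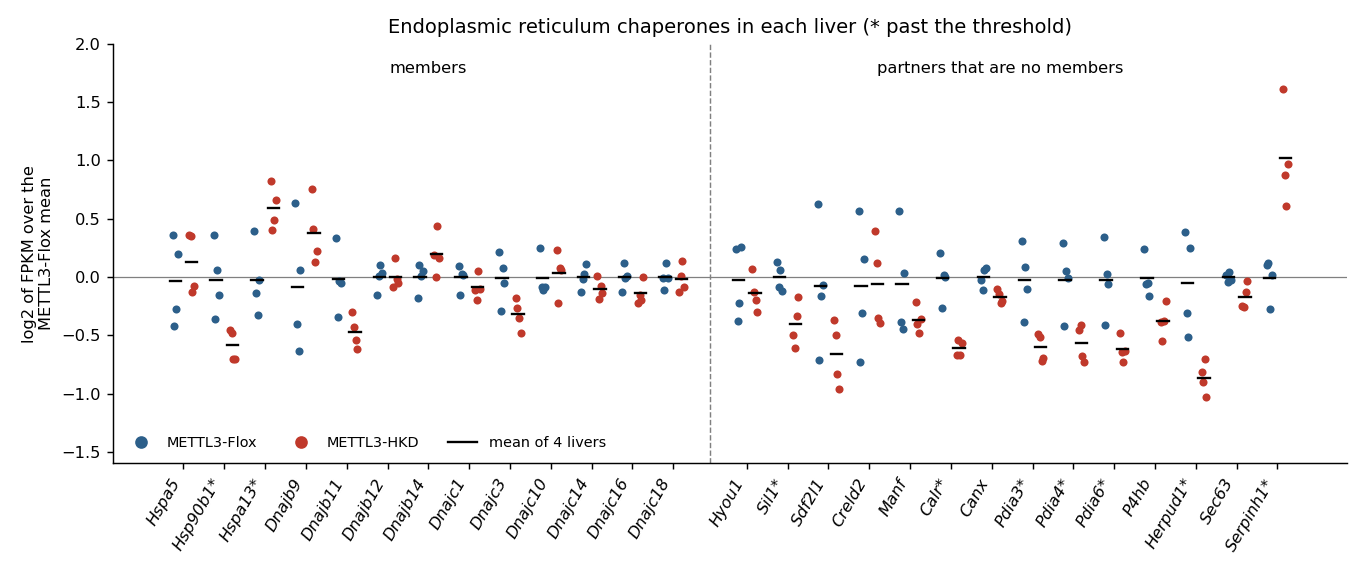
Log2 of FPKM over the METTL3-Flox mean in each liver, for the 13 ER members at the left and 14 ER partners that are no members at the right, with group means as lines and an asterisk on genes past an adjusted p of 0.05. Red points lie below blue ones for Hsp90b1 and for the partners Calr, Pdia3, Pdia6, P4hb, Herpud1 and Sil1, and above them for Hspa13 and Serpinh1.

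Genes that work with these chaperones in the ER but lie outside the symbol rule were counted next. Of 14 such partners, 6 fell (Calr, Pdia3, Pdia4, Pdia6, Herpud1 and Sil1), 1 rose (Serpinh1), and the median log2 fold change was -0.38. These are 42.9% lower and 7.14% higher, where 6.63% of all genes tested were lower and 9.05% higher. Calr (calreticulin), a calcium-binding lectin chaperone, was at 355.0, 389.2, 354.0 and 382.3 FPKM in METTL3-HKD livers and at 652.5, 469.9, 571.2 and 565.2 FPKM in METTL3-Flox livers. The METTL3-HKD livers were close together and all lower (log2 fold change -0.60 ± 0.13 SE, adjusted p = 0.018). Serpinh1 (HSP47), the collagen chaperone and an HSF1 target, was at 22.3, 13.3, 11.1 and 14.2 FPKM against 7.81, 7.88, 6.00 and 7.35 FPKM. It rose with no overlap (1.02 ± 0.20 SE, adjusted p = 0.014). Hyou1, the ER HSP110, overlapped between groups (53.3 ± 5.93 and 58.5 ± 12.8 FPKM, SD, n = 4). The number of ER partners that fell was unstable: it was 0 with scaling to the reads on genes, with the replicate block and without METTL3-HKD-1 and METTL3-HKD-3. Calls of lower genes were also fewer there, at 2.24%, 3.88% and 1.60% of all genes tested.

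The cytosolic chaperonin CCT folds actin and tubulin, and 0 of its 7 tested members passed the test. Of these, 6 (Cct2, Cct3, Cct4, Cct5, Cct7 and Cct8) had log2 fold changes between 0.06 (Cct7) and 0.23 (Cct5). At an unadjusted p under 0.05 in limma 1 of the 7 was higher and 0 were lower, against 16.7% and 15.1% of all genes. Summed levels of the 6 were 183.1 to 227.5 FPKM in METTL3-HKD livers and 162.4 to 214.7 FPKM in METTL3-Flox livers, which overlap. Cct6b, the testis form of a subunit, was at 0.296 ± 0.171 and 0.499 ± 0.138 FPKM (SD, n = 4), a log2 difference of -0.68 (adjusted p = 0.219). Cct6a is listed with another biotype and is therefore no member. Tcp1, the subunit CCT1, is no member by symbol. It was at 27.7, 27.0, 24.5 and 24.6 FPKM in METTL3-HKD livers and at 23.01, 22.2, 21.9 and 23.1 FPKM in METTL3-Flox livers, with no overlap and an adjusted p of 0.112 (log2 fold change 0.20).

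Of the 8 other small heat shock proteins and BAG members that were tested, 0 passed, with 1 higher (Hspb7) and 0 lower at an unadjusted p under 0.05, against 16.7% and 15.1% of all genes. Hspb7, a small heat shock protein of heart and skeletal muscle, was at 2.53, 0.0782, 3.86 and 0.447 FPKM in METTL3-HKD livers and at 0 to 0.224 FPKM in METTL3-Flox livers. It was high in METTL3-HKD-1 and METTL3-HKD-3 alone, the livers with the muscle transcripts, and the adjusted p was 0.0729. The muscle markers Acta1 and Tnnt3 were at 37.4 and 12.2 FPKM in METTL3-HKD-1 and at 61.8 and 19.7 FPKM in METTL3-HKD-3. The other 5 BAG members, cochaperones that release clients from HSP70 or guide proteins to membranes and to the proteasome, had log2 fold changes between -0.19 (Bag4) and 0.19 (Bag2).

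Cryab, the alpha-B crystallin small heat shock protein, is no member by symbol and belongs to the cytosolic partners. It was at 7.73, 5.23, 6.96 and 3.53 FPKM in METTL3-HKD livers and at 2.28, 1.38, 2.001 and 1.34 FPKM in METTL3-Flox livers. The groups did not overlap, the livers with muscle transcripts were the highest, and the log2 fold change was 1.66 ± 0.26 (SE, adjusted p = 0.0074). Without those livers it was 1.28 (adjusted p = 0.0460). Among the 16 cytosolic partners 1 rose (Cryab), 1 fell (Fkbp4) and the median was -0.05. This is 6.25% each way, near the 9.05% of all genes tested that rose and the 6.63% that fell. Fkbp4, an HSP90 cochaperone of steroid receptors, had a log2 fold change of -0.41 ± 0.11 (SE, adjusted p = 0.040), and 11 of 16 alternatives ended the call. Hsf1 itself, the factor that switches on the inducible members, overlapped between groups at 2.15 ± 0.33 and 1.90 ± 0.08 FPKM (SD, n = 4), as did Stip1 (HOP), which hands clients from HSP70 to HSP90, at 39.4 ± 3.47 and 42.3 ± 8.50 FPKM.

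The members in no list were mostly J-domain proteins of varied roles, and 5 of the 26 tested rose while 0 fell. The risen share was 19.2%, where 9.05% of all genes tested rose and 6.63% fell. Dnajc2 (MPP11), which works at the ribosome, was at 6.23, 5.33, 5.46 and 5.69 FPKM against 4.10, 2.82, 2.68 and 3.31 FPKM, with no overlap (log2 fold change 0.81 ± 0.14 SE, adjusted p = 0.0096). Dnajc5, the cysteine string protein of secretory vesicles, was at 15.7 ± 2.92 and 9.77 ± 0.749 FPKM (SD, n = 4, 0.66, adjusted p = 0.016). Dnajb6, which keeps aggregation-prone proteins soluble, was at 11.9, 12, 10.4 and 12 FPKM against 8.996, 9.10, 7.61 and 8.73 FPKM. Every METTL3-HKD liver was higher and the step was small (0.42 ± 0.09 SE, adjusted p = 0.021). The call of Dnajb6 was lost in 5 of 16 alternatives, 4 of them the omission of a single liver.

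Dnaja4, an HSP40 of the cytosol, was at 1.86, 1.84, 1.97 and 1.89 FPKM against 1.14, 0.811, 1.12 and 1.40 FPKM (0.73 ± 0.16 SE, adjusted p = 0.020). Wdr61, on the opposite strand, covers 44.1% of its exon bases at a higher level, 10.01 ± 0.883 and 9.41 ± 0.816 FPKM, so the value of Dnaja4 is uncertain. Dnajc13, an endosomal protein named after its values were seen, was at 6.71 ± 1.73 and 3.55 ± 0.485 FPKM (0.87, adjusted p = 0.026), and 8 of 16 alternatives ended the call. Lower in the mean, and past no threshold, were Dnajc22 (46.7 ± 8.15 and 60.6 ± 3.17 FPKM, adjusted p = 0.0685), Dnajc12 (12.5 ± 2.84 and 24.5 ± 11.8 FPKM, adjusted p = 0.0758) and Dnajc4 (6.49 ± 1.26 and 7.92 ± 1.02 FPKM, adjusted p = 0.218). Dnajc22 is known as a membrane J-domain protein. Its groups did not overlap, whereas those of Dnajc12, a cochaperone of aromatic amino acid hydroxylases, did.

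In all, the members summed to 1.28%, 1.40%, 0.761% and 0.841% of the FPKM of all genes in METTL3-HKD livers and to 0.631%, 0.531%, 0.615% and 0.768% in METTL3-Flox livers. METTL3-HKD-3 lay just below METTL3-Flox-4, so the share overlapped between groups. The inducible list alone took 0.166% to 0.408% in METTL3-HKD livers and 0.0510% to 0.0798% in METTL3-Flox livers, with no overlap. Members with a mean of at least 100 FPKM numbered 11 in METTL3-HKD livers and 7 in METTL3-Flox livers.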

How the data were processed

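RNA-seq of 8 mouse livers (4 METTL3-HKD, 4 METTL3-Flox, grouped by sample title) was analysed. The authors deposited FPKM (fragments per kilobase of gene, scaled to the library) for each gene and liver, with gene lengths. The submitters' processing notes name GRCm38 and mm10. Aligner, counting, gene annotation and strandedness are not given in the sources used here, so values of overlapping or near-identical genes are uncertain. FPKM multiplied by gene length and a factor per liver gave whole reads for 100% of values (tolerance 0.01 reads), used for depth.

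FPKM was transformed as log2(FPKM + 0.1), genes averaging 0.1 FPKM or more were kept (16645), and groups were compared with limma 3.58.1 (trend) in R 4.3.3 and adjusted by Benjamini-Hochberg over all genes tested. Fold changes on this scale understate those of low genes. "Rose", "fell", "higher" and "lower" of tested genes mean an adjusted p under 0.05. Ratios were tested by exact permutation over 70 arrangements (scipy 1.17.1). The p-values of limma set a difference against the spread between these livers, moderated over all genes. Those of the permutation test rank the observed grouping among the 70 arrangements. On simulated data of 16275 genes, 193 of 198 changed genes were recovered and 15 unchanged genes were called. Recovery was not tested by size of fold change, so these counts do not give it for the smaller fold changes reported here.

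The members, the lists of inducible, constitutive and compartment chaperones, of partners and of cell type markers, and the promoter motifs were chosen with earlier results of these data known. Named were all inducible and constitutive list members, Hspa5, Hsp90b1, Dnajb9, Dnajb11, Dnajc3, Hspa9, Hspd1 and Hspe1, other members past 2-fold, of the remaining members the 4 higher and 4 lower with the smallest p, and of the partners Hsf1, Cryab, Hyou1, Stip1 and the 2 with the smallest p in each list. Hspa13, Hspb7, Dnajc13 and the further partners and list extremes given by name were named after their values were seen. Of the marker lists for other cells, 2 of 5 Kupffer cell markers were lower and 0 higher, 0 of 5 sinusoidal endothelial markers passed, 1 of 5 stellate cell markers was higher and 2 were lower, 4 of 5 cholangiocyte markers were higher, 1 of 5 hepatocyte markers (Hnf4a) was lower, and 0 of 6 muscle and 0 of 3 tested lymphocyte markers passed. Samples with the same replicate number did not deviate together (correlations 0.140, -0.160, -0.043 and -0.104). The main comparison therefore used no pairs, but so few pairs cannot exclude pairing by litter or batch.

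As alternatives, the pseudocount was set to 1 FPKM, the minimum mean to 1 FPKM or to none, and the trend was left out. Others were a replicate block, voom on the rebuilt reads, scaling to the reads on genes, the omission of each liver in turn and, chosen after seeing the data, the omission of METTL3-HKD-1 and METTL3-HKD-3. Promoter windows are from RefSeq (GRCm38.p6).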

Additional observations from a re-analysis of the deposited data

Results flagged for a closer look

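In 3 of 78 groups of 4 livers examined, 1 liver stood far from the other 3, and chance flags about 1 in 20 such groups. The gap of the lowest METTL3-HKD liver, METTL3-HKD-3, took 0.954 of the range of Dnajb6 in that group. The highest METTL3-Flox liver took 0.892 of the range for Hspa14 and 0.853 for Hspb8 in METTL3-Flox livers. Hspa14 and Hspb8 passed no threshold. The Dnajb6 groups did not overlap in spite of METTL3-HKD-3.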

How the results depend on the processing

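Of the 16 named members that were called, 7 kept the call in all 16 alternatives and 0 changed direction. These 7 were Hspa1a, Hspa1b, Hspb1, Hsp90aa1, Dnajb1, Hspd1 and Hspe1. Members higher in METTL3-HKD livers numbered between 10 (without METTL3-Flox-3) and 19 (without METTL3-HKD-3) when 1 liver was left out. Of all genes tested, 4.49% and 9.95% were higher there. Without METTL3-HKD-1 and METTL3-HKD-3, where only 2 livers remain in the group, 9 members and 4.12% of all genes were higher. Members lower numbered between 0 and 2 when 1 liver was left out, where 2.13% to 6.89% of all genes tested were lower. They numbered 0 with a pseudocount of 1 FPKM, without a minimum, without the trend, with the replicate block, with scaling to the reads on genes and without METTL3-HKD-1 and METTL3-HKD-3, and 2 with a minimum mean of 1 FPKM. In these settings 1.60% to 10.8% of all genes tested were lower. Inducible members higher numbered between 5 and 8 over all alternatives, where 4.12% to 13.9% of all genes tested were higher.

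The deposited values were scaled between livers. Scaling to the reads on genes moved the all-gene median from -0.00 to 0.20 (log2) and called 20 members higher, among them all 17, where 13.9% of all genes tested were higher and 2.24% lower. The medians of the ER and mitochondrial lists moved to 0.19 and 0.18. Hyou1 turned to 0.10 and Stip1 to 0.13 there. The cause of these changes was not tested. With the replicate block 15 members were higher and 0 lower (5.83% and 3.88% of all genes), since Dnajc13 and Hspa4 (adjusted p = 0.0503) lost the call. Whether the replicate numbers pair the livers is not known. Intervals cover the spread of 4 livers a group.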
